A study of Homo sapiens with 6 samples.

Results

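The enzymes that make serine from a glycolytic intermediate, and those that move its one-carbon unit through folate, comprised 10 genes: PHGDH, PSAT1, PSPH, SHMT1, SHMT2, MTHFD1, MTHFD2, MTHFD1L, MTHFD2L and ALDH1L2. They were chosen by name and not by a rule on their values, although earlier results of these data were known. They are 10 of the 26425 genes whose transcripts were summed. All 10 passed the filter of more than 1 RPKM in at least 3 libraries and so belong to the 11889 genes tested. RPKM, the unit of the deposited table as inferred from its values, is the number of reads scaled by transcript length and by library depth. RNA was measured in SUM1315, an established line of triple-negative breast cancer cells, labelled wild type and grown with insulin and EGF. In the hypoxia group (3 libraries) the cells had spent 24 h in a modular chamber at 1% oxygen, and in the normoxia group (3 libraries) 24 h at 21% oxygen. It is a single cell line, and the labels do not say whether the libraries of a group came from separate cultures, so each p-value here reflects how much the libraries of a group vary, a variation that may be purely technical.

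Serine synthesis branches off glycolysis at 3-phosphoglycerate and runs through PHGDH, PSAT1 and PSPH. The SHMT enzymes then split serine into glycine and a one-carbon unit carried on tetrahydrofolate, SHMT2 in mitochondria and SHMT1 in the cytosol. Mitochondrial enzymes turn that unit into formate, which the cytosolic enzyme MTHFD1 takes up again for purine and thymidylate synthesis. Several of these genes, PHGDH, PSAT1, SHMT2 and MTHFD2 among them, are known targets of the stress-response factor ATF4, and PHGDH is known as a gene gained or highly expressed in part of breast cancers.

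The depth recovered from the table, with M for a factor of 1e6, was 43.98 to 50.66 M reads in hypoxic and 50.44 to 50.92 M reads in normoxic libraries. The oxygen labels were checked on known targets of the hypoxia-inducible factors, of which 9 of 9 tested rose, where 12.4% of all tested genes did (CA9 and EGLN3 were below the filter). The angiogenic factor VEGFA was at 22.3, 19.9 and 24.5 RPKM in the hypoxic libraries and at 10.4, 10.1 and 9.59 RPKM in the normoxic libraries. The mitophagy receptor BNIP3 was at 155, 171 and 159 RPKM in hypoxia and 27.4, 28.2 and 30.6 RPKM in normoxia. On the log2(RPKM + 1) scale, the stress gene DDIT4 (log2 fold change 3.02) and the glucose transporter SLC2A1 (2.88) changed most on that list. The order by ratio of means differed. Of 7 markers of mammary and carcinoma cells, VIM (6310 to 7440 RPKM in hypoxia, 4740 to 4900 RPKM in normoxia) and CD44 (444 to 592 RPKM in hypoxia, 446 to 460 RPKM in normoxia) passed the filter, while KRT8, KRT18, KRT5, KRT14 and EPCAM lay at 0.11 RPKM or less in each library. Of the hormone and HER2 receptor markers, ERBB2 lay at 20.2 to 23.7 RPKM and ESR1 at 0.209 RPKM or less. Of the immune markers, CD68 alone passed the filter, with 73.5 to 80.7 RPKM in hypoxia and 45.8 to 48.3 RPKM in normoxia, while PTPRC lay at 0.00826 RPKM or less. VIM and CD68 thus differed between the groups together with the enzymes described, and their part in those results was not tested. Endothelial and adipocyte markers summed to 0.172 RPKM or less in every library.

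PHGDH and ALDH1L2 rose in hypoxia, and PSAT1, MTHFD2 and the measured part of MTHFD1, which lacks its principal transcript, fell (limma with Benjamini-Hochberg adjustment over all tested genes, adjusted p under 0.05). The other 5 enzymes did not pass the test. At the same threshold, 2 of the 10 were raised, against 12.4% of all tested genes, and 3 were lowered, against 24.4%. In either direction it was 5 of the 10 against 36.8%. In both raised enzymes every hypoxic library lay above every normoxic one (16.4% of all tested genes), and in 6 enzymes every hypoxic library lay below every normoxic one (35.5% of all tested genes), so that 2 enzymes overlapped, where 51.9% of all tested genes did not overlap. The log2 fold change, hypoxia over normoxia on the log2(RPKM + 1) scale, was below 0 in 8 of the 10, against 63.8% of all tested genes, and its median over the 10 was -0.14, against -0.085 over all tested genes. The balance rests on the scaling. Lowered genes were 66.2% of all calls as deposited, 41.2% after median-of-ratios and 42.9% after upper-quartile scaling. Of all tested genes, 1421 of 11892 were lowered under the median-of-ratios and 1473 of 11894 under the upper-quartile scaling. Under either of these, 0 of the 10 enzymes passed as lowered, while PHGDH and ALDH1L2 still passed as raised. With libraries rescaled to equal sums, 7 of the 10 passed as lowered, beside 4217 of 11888 tested genes. The log2(RPKM + 1) scale understates changes of weakly expressed genes, and in bulk RNA a lower share of expressing cells and less RNA per cell cannot be told apart.

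**Figure D1:**
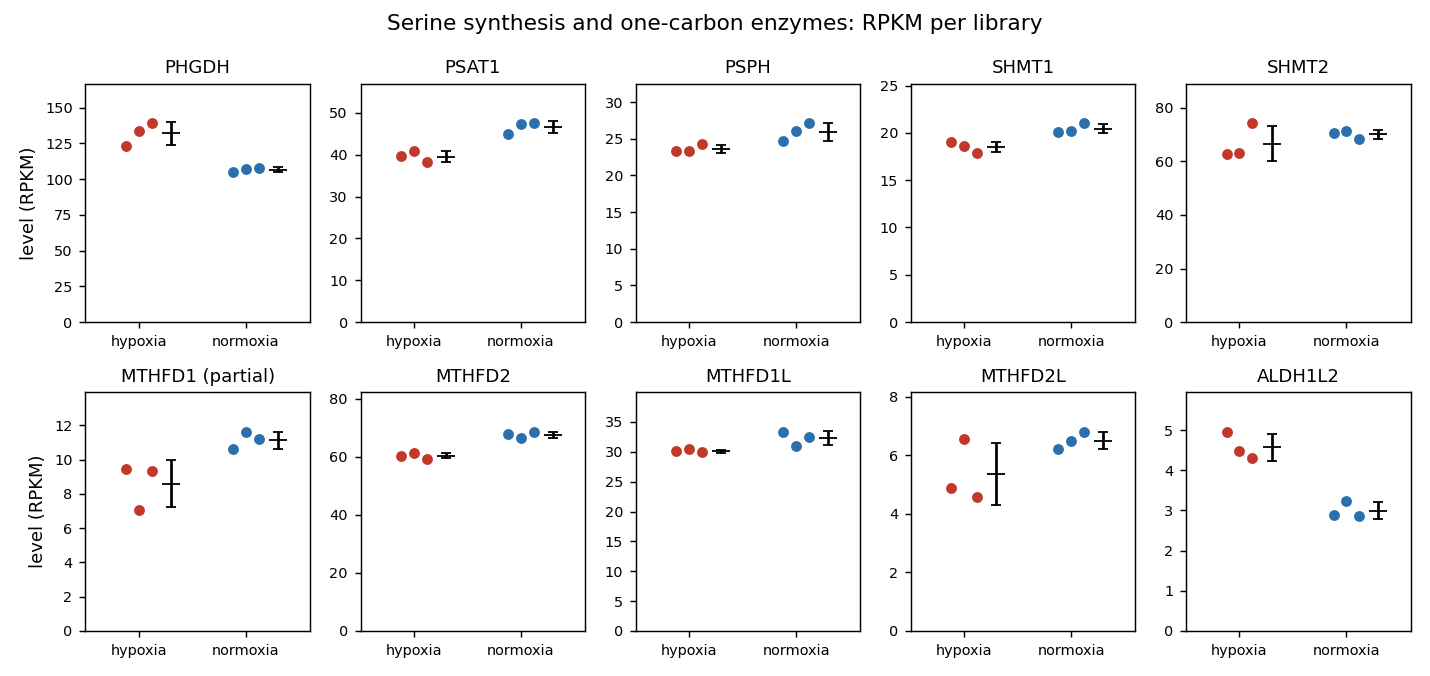
Level of each enzyme in RPKM (vertical axes, starting at 0 and scaled for each gene) in the 3 hypoxic libraries (red, left) and the 3 normoxic libraries (blue, right), with the mean and SD of each group in black. PHGDH and ALDH1L2 are higher in all hypoxic libraries, SHMT2 and MTHFD2L overlap between groups, and MTHFD1 is marked partial because its main transcript is not among the summed ones.

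In the serine branch itself the first step and the second moved in opposite directions. PHGDH (ENSG00000092621, chromosome 1, 119648411 to 119744226, GRCh38), the dehydrogenase that commits 3-phosphoglycerate to serine, was at 123, 134 and 139 RPKM in the hypoxic libraries and at 105, 107 and 108 RPKM in the normoxic libraries. The hypoxic libraries spread more widely than the normoxic ones, and the groups did not overlap. The means were 132 ± 7.86 RPKM in hypoxia and 107 ± 1.51 RPKM in normoxia (SD, n = 3 each), a ratio of 1.23 and a log2 fold change of 0.30 (SE 0.06, limma adjusted p = 0.0034). This change was above that of 90.5% of all tested genes.

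PSAT1 (ENSG00000135069, chromosome 9, 78297143 to 78330093), the transaminase of the second step, was at 39.7, 40.8 and 38.2 RPKM in hypoxia and at 45.0, 47.4 and 47.5 RPKM in normoxia. All hypoxic libraries were lower, with means of 39.6 ± 1.35 RPKM in hypoxia and 46.6 ± 1.45 RPKM in normoxia (SD, n = 3 each) and a log2 fold change of -0.23 (SE 0.06, limma adjusted p = 0.0112). The call was lost with median-of-ratios scaling (log2 fold change of PSAT1 -0.15, adjusted p = 0.0752), upper-quartile scaling (0.061) and removal of the trend on GC content (-0.12, adjusted p = 0.0528), and without normoxia replicate 2 (0.0593) or 3 (0.0576). PSPH (ENSG00000146733, chromosome 7, 56011051 to 56051604), the phosphatase that releases serine, was at 23.4, 23.3 and 24.3 RPKM in hypoxia and 24.7, 26.1 and 27.1 RPKM in normoxia, a log2 fold change of -0.13 (SE 0.06, limma adjusted p = 0.125). The ratio of PHGDH to PSAT1, a pair chosen after its values were seen, was 3.1, 3.27 and 3.64 in hypoxia and 2.34, 2.26 and 2.28 in normoxia.

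The stretches before the RefSeq starts of PHGDH (chr1:119711684-119711933), PSAT1 (chr9:78296875-78297124) and MTHFD2 (chr2:74198365-74198614) are shown because these are the raised and the lowered enzymes of the ATF4-linked group that have an entry, and that of MTHFD1L (chr6:150866236-150866485) because MTHFD1L is the only gene among the 7 with the ATF4-type motif, in this and in an overlapping window of its own. All are on the plus strand of GRCh38.p14, 250 bases long, 5′ to 3′ and from RefSeq, and 7 of the 10 genes had such an entry. Capitals mark matches, on either strand, to ACGTG and GCGTG (the core of hypoxia response elements), CACGTG (the E-box, which contains ACGTG on both strands), TGATGNAAN (the C/EBP-ATF composite element) and CCAAT (the NF-Y box).
PHGDH: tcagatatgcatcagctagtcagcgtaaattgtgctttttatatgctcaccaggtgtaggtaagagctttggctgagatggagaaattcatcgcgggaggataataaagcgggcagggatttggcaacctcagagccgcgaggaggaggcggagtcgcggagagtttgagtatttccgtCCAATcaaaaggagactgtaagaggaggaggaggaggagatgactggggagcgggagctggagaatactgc
PSAT1: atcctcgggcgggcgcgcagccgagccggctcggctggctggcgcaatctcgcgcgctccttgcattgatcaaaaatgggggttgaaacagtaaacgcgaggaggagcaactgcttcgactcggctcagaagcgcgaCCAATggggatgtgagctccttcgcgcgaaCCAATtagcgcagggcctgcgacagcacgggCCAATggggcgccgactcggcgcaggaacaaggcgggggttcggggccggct
MTHFD2: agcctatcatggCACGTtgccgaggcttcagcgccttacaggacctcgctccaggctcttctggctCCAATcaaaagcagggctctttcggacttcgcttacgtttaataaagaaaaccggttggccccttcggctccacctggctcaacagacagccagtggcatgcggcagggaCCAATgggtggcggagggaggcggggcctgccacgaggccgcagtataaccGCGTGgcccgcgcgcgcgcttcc
MTHFD1L: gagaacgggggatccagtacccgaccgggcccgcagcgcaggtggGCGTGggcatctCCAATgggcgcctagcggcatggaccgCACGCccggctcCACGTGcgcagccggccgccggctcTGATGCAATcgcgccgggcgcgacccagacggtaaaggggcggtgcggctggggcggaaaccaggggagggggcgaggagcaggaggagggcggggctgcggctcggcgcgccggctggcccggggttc
PHGDH had 1 CCAAT box and no other match, and PSAT1 had 3 CCAAT boxes and no other match. MTHFD2 had 2 CCAAT boxes with 1 ACGTG and 1 GCGTG, and this MTHFD1L window had 1 CACGTG site, 2 GCGTG, 1 CCAAT and 1 TGATGNAAN. Among all 35116 windows of this length, 18.5% held ACGTG, 32.2% GCGTG, 6.34% CACGTG, 3.13% TGATGNAAN and 32% CCAAT. The RefSeq starts need not be those of the transcripts measured, which are described below. PHGDH-208 begins at 119711715, MTHFD2-201 at 74198562, and MTHFD1L-203, MTHFD1L-211 and MTHFD1L-212 at 150865549, 150865679 and 150866333. The PHGDH CCAAT, the MTHFD2 GCGTG and the MTHFD1L TGATGNAAN thus lie downstream of these starts. A match describes letters and not a binding site, and a window without one says nothing of the factor; CCAAT was added to the search after the windows had been read.

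The SHMT enzymes did not pass the test. With the GC trend removed both did, SHMT1 at -0.18 (limma adjusted p = 0.028) and SHMT2 at -0.15 (0.0447), and SHMT1 also with libraries rescaled to equal sums (0.0263). SHMT2 (ENSG00000182199, chromosome 12, 57229327 to 57234935), the mitochondrial form, was at 62.8, 63.0 and 74.2 RPKM in hypoxia and at 70.6, 71.4 and 68.3 RPKM in normoxia. Hypoxia replicate 3 lay above all normoxic libraries and the other hypoxic libraries lay below them. The log2 fold change was -0.07 (SE 0.07, limma adjusted p = 0.422), and under upper-quartile or median-of-ratios scaling its sign turned. Without hypoxia replicate 3 the log2 fold change of SHMT2 was -0.15 (adjusted p = 0.045). SHMT1 (ENSG00000176974, chromosome 17, 18327860 to 18363563), the cytosolic form, was at 19.0, 18.6 and 17.9 RPKM in hypoxia and 20.1, 20.2 and 21.0 RPKM in normoxia, a log2 fold change of -0.14 (SE 0.06, limma adjusted p = 0.0991). The ratio of SHMT2 to SHMT1 was 3.31, 3.39 and 4.15 in hypoxia and 3.51, 3.53 and 3.25 in normoxia, so that the groups overlapped.

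Among the mitochondrial enzymes downstream of SHMT2, MTHFD2 fell slightly and ALDH1L2 rose. MTHFD2 (ENSG00000065911, chromosome 2, 74198562 to 74217565), a dehydrogenase and cyclohydrolase that is low in most adult tissues and high in many tumours, was at 60.4, 61.3 and 59.4 RPKM in hypoxia and at 67.9, 66.5 and 68.5 RPKM in normoxia. The groups were tight and did not overlap, with means of 60.4 ± 0.909 RPKM in hypoxia and 67.7 ± 1.01 RPKM in normoxia (SD, n = 3 each) and a log2 fold change of -0.16 (SE 0.05, limma adjusted p = 0.034). Relative to the median of all tested genes the change of MTHFD2 was -0.08, and 36.7% of tested genes had a lower one. The call was lost with median-of-ratios scaling (log2 fold change of MTHFD2 -0.08, adjusted p = 0.284), upper-quartile scaling (0.229) and removal of the GC trend (0.131), and without normoxia replicate 1 (0.124), 2 (0.0974) or 3 (0.125). A block on replicate number also lost it (limma adjusted p = 0.0763), though the labels state no pairing.

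Its paralog MTHFD2L (ENSG00000163738, chromosome 4, 74114174 to 74303099) was at 4.89, 6.56 and 4.59 RPKM in hypoxia and 6.22, 6.47 and 6.79 RPKM in normoxia. Hypoxia replicate 2 lay among the normoxic libraries and the other hypoxic libraries below them, with a log2 fold change of -0.25 (SE 0.11, limma adjusted p = 0.092), and without hypoxia replicate 2 MTHFD2L was at -0.38 (adjusted p = 0.00694), without hypoxia replicate 3 at -0.17 (0.252) and with the GC trend removed at -0.07 (0.596). MTHFD1L (ENSG00000120254, chromosome 6, 150865549 to 151101887), which releases formate from the mitochondrial folate pool, was at 30.1, 30.4 and 29.9 RPKM in hypoxia and 33.3, 31.0 and 32.5 RPKM in normoxia, a log2 fold change of -0.10 (SE 0.06, limma adjusted p = 0.214). The hypoxic values of MTHFD1L were the lower ones and did not overlap with the normoxic ones, but the difference was close to the median of all tested genes.

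ALDH1L2 (ENSG00000136010, chromosome 12, 105019784 to 105084577), the mitochondrial formyltetrahydrofolate dehydrogenase, which oxidises the one-carbon unit to carbon dioxide and makes NADPH, was at 4.95, 4.47 and 4.3 RPKM in hypoxia and at 2.89, 3.23 and 2.85 RPKM in normoxia. By its sum over all transcripts, ALDH1L2 was the weakest expressed of the 10 in normoxia, and it had the largest relative change. The means were 4.58 ± 0.336 RPKM in hypoxia and 2.99 ± 0.21 RPKM in normoxia (SD, n = 3 each), a ratio of 1.53 and a log2 fold change of 0.48 (SE 0.09, limma adjusted p = 0.00221), above that of 95.7% of tested genes. On the opposite strand its span overlaps NOPCHAP1 over 54414 bases, and the library kit did not mark strand, so reads where exons meet cannot be assigned with certainty. NOPCHAP1 moved the other way, with 6.28, 8.32 and 6.93 RPKM in hypoxia and 8.71, 8.83 and 9.14 RPKM in normoxia.

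MTHFD1 (ENSG00000100714, chromosome 14, 64388031 to 64463457), the cytosolic enzyme of 3 activities that brings formate back into the folate pool, was measured only in part. Its principal transcript in the annotation used, MTHFD1-201 with 28 exons and 3136 bases, is not among the identifiers of the table, and the gene sum rests on 14 other transcripts, the leading one of 7 exons. These summed to 9.42, 7.04 and 9.33 RPKM in hypoxia and to 10.6, 11.6 and 11.2 RPKM in normoxia, with 376 to 655 estimated reads per library. All hypoxic libraries were lower, with a log2 fold change of -0.35 (SE 0.10, limma adjusted p = 0.0211), which says nothing of the level of the whole gene. The call was lost without a filter (adjusted p = 0.137), under limma-voom on estimated reads (0.0689), under median-of-ratios (0.0645) or upper-quartile (0.0679) scaling, and on leaving out normoxia replicate 2 (0.0744) or 3 (0.0671). Without hypoxia replicate 2 the log2 fold change of MTHFD1 was -0.23 (adjusted p = 0.0391). Its span overlaps ZBTB25 on the other strand over 14352 bases, a gene with 6.88, 6.46 and 5.81 RPKM in hypoxia and 4.48, 4.49 and 4.75 RPKM in normoxia.

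**Figure D2:**
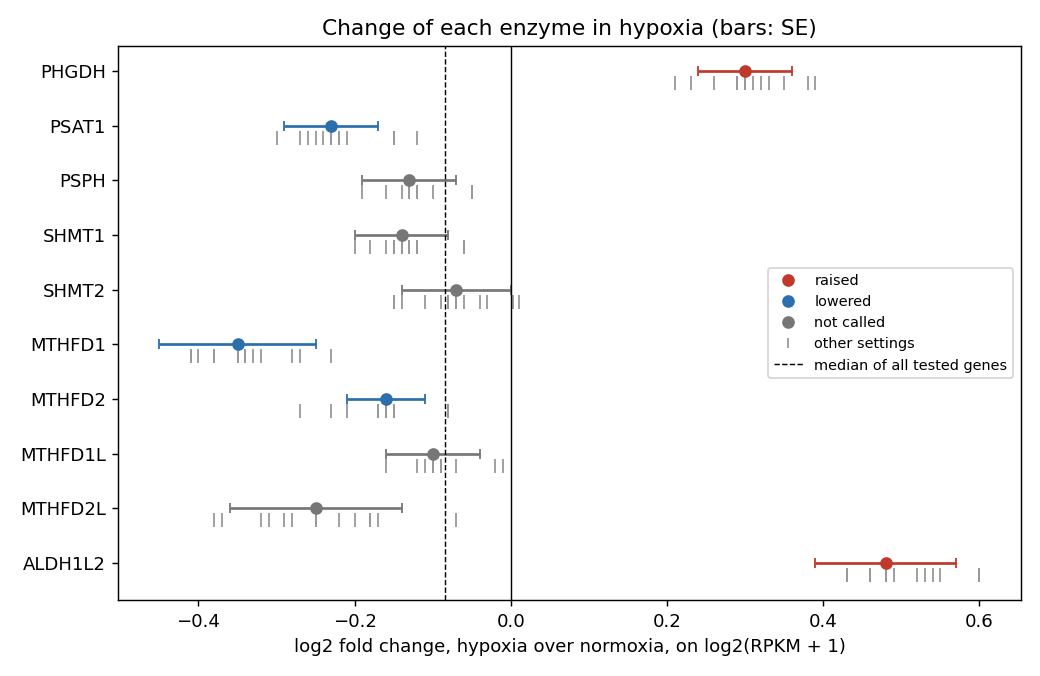
Log2 fold change of each enzyme, hypoxia over normoxia on log2(RPKM + 1) (horizontal axis), with its SE as a bar and the values under the other processing settings as grey ticks below it. The dashed line is the median of all tested genes (-0.085), and PHGDH and ALDH1L2 are the enzymes to the right of 0.

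The order of the levels, per transcript length, was nearly the same in all libraries. PHGDH was highest in each, followed by SHMT2 and MTHFD2, then PSAT1, MTHFD1L, PSPH and SHMT1. The partial value of MTHFD1 came next, and MTHFD2L and ALDH1L2 were lowest. SHMT2 and MTHFD2 did not differ beyond their spread in normoxia (68.3 to 71.4 RPKM and 66.5 to 68.5 RPKM), whereas in hypoxia SHMT2 lay above MTHFD2 in each library. MTHFD2L and ALDH1L2 overlapped in hypoxia (4.59 to 6.56 RPKM and 4.3 to 4.95 RPKM) and were apart in normoxia (6.22 to 6.79 RPKM and 2.85 to 3.23 RPKM). The other neighbours in the order did not overlap. The place of MTHFD2 rests on transcripts that are not protein-coding. From protein-coding ones alone it was at 8.44 to 9.56 RPKM in hypoxia and 9.92 to 11.9 RPKM in normoxia, below PSAT1, MTHFD1L, PSPH and SHMT1 in each library. On the same basis MTHFD2L, at 1.35 to 1.6 RPKM, lay below ALDH1L2, at 3.37 to 4.38 RPKM, in hypoxia. In normoxia their ranges overlapped (1.95 to 2.44 RPKM and 2.27 to 2.82 RPKM), but MTHFD2L was the lower in each library. The ratio of MTHFD2 to MTHFD2L was 12.4, 9.35 and 12.9 in hypoxia and 10.9, 10.3 and 10.1 in normoxia, with overlap. From protein-coding transcripts alone that ratio was 6.82, 5.7 and 6.26 in hypoxia and 5.08, 5.59 and 4.73 in normoxia, higher in all hypoxic libraries. The ratio of MTHFD1L to the partial MTHFD1 value was 3.2, 4.31 and 3.21 in hypoxia and 3.14, 2.68 and 2.89 in normoxia. Counting error of the estimated read totals was small beside these differences for most of the enzymes. At the lowest read number it was 0.997% of the total for PHGDH, 1.59% for MTHFD2, 3.13% for ALDH1L2, 4.98% for MTHFD2L and 5.16% for MTHFD1. Summed RPKM weights short transcripts more, and its own counting error was not computed. Of 14 pseudogenes named after these enzymes, 2 had a transcript in the table, at 0.015 RPKM or less.

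The transcripts behind the sums differed in kind. The 10 genes had 145 transcripts in the table, of which 34 passed the same filter, and in a fit over all 26790 such transcripts 1 was raised and 2 were lowered, against 3.5% raised and 3.22% lowered over all. The raised one was PHGDH-208, the principal protein-coding transcript (12 exons, 2096 bases), with 102, 113 and 113 RPKM in hypoxia and 86.3, 88.9 and 86.1 RPKM in normoxia (log2 fold change 0.32, SE 0.06, limma adjusted p = 0.0284). It held 82.3% of the PHGDH sum and 91.3% of its estimated reads. PHGDH-207, a retained-intron transcript of 508 bases, held 12% of the sum and overlapped between groups (log2 fold change 0.13, limma adjusted p = 0.591).

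PSAT1-202, the principal transcript of PSAT1, fell, with 31.2, 33.7 and 28.1 RPKM in hypoxia and 40.0, 38.1 and 40.0 RPKM in normoxia (log2 fold change -0.34, SE 0.08, limma adjusted p = 0.0475). The shorter PSAT1-201 was at 8.57 ± 1.47 RPKM in hypoxia and 7.25 ± 2.21 RPKM in normoxia (SD, n = 3 each) and overlapped. The lowered MTHFD1 transcript was MTHFD1-211, at 4.99, 3.56 and 4.82 RPKM in hypoxia and 6.93, 7.33 and 6.68 RPKM in normoxia (log2 fold change -0.56, SE 0.12, limma adjusted p = 0.0423). ALDH1L2-201, the principal transcript, carried 86% of the ALDH1L2 sum. It was at 4.26, 4.17 and 3.33 RPKM in hypoxia and 2.23, 2.82 and 2.71 RPKM in normoxia, without overlap (log2 fold change 0.45, SE 0.13, limma adjusted p = 0.0751).

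For MTHFD2 15.8% of the sum, and 42.9% of the estimated reads, lay in protein-coding transcripts. The highest value belonged to MTHFD2-205, annotated as a target of nonsense-mediated decay, with 24.1, 25.6 and 20.9 RPKM in hypoxia and 26.6, 26.3 and 27.7 RPKM in normoxia. The principal transcript MTHFD2-201, of 4456 bases, was at 9.54, 8.29 and 8.44 RPKM in hypoxia and 9.83, 10.1 and 11 RPKM in normoxia (log2 fold change -0.21, SE 0.09, limma adjusted p = 0.175). With protein-coding transcripts alone the log2 fold change of MTHFD2 was -0.27 and that of MTHFD2L -0.37 (limma adjusted p = 0.029 and 0.0101). MTHFD2L was likewise carried by MTHFD2L-208, a processed transcript of 2 exons that held 64.7% of the sum, at 3.29, 4.56 and 2.7 RPKM in hypoxia and 4.18, 4.09 and 4.16 RPKM in normoxia. In SHMT2 the principal transcript SHMT2-201 did not overlap between groups, with 42.6, 43.5 and 47.1 RPKM in hypoxia and 48.2, 49.3 and 50.9 RPKM in normoxia (log2 fold change -0.15, SE 0.06, limma adjusted p = 0.176), unlike the gene sum. Of the remaining transcripts that held at least 10% of their gene's sum, each missed the threshold. MTHFD2-204 and MTHFD2-208, neither of them protein-coding, were lower in all hypoxic libraries (log2 fold change -0.19 and -0.38, limma adjusted p = 0.287 and 0.087), while MTHFD2-206 had 5.82, 7.51 and 10.3 RPKM in hypoxia and 7.89, 4.06 and 3.5 RPKM in normoxia and overlapped. MTHFD1L was divided among MTHFD1L-203, MTHFD1L-211 and MTHFD1L-212, of 28 exons each, with 39%, 29.9% and 23.2% of the sum, and all of them overlapped between groups (log2 fold change -0.01, -0.32 and 0.00). PSPH-202 (58.6% of the PSPH sum) and SHMT1-201 (58.1% of the SHMT1 sum) were lower in all hypoxic libraries, with log2 fold changes of -0.15 and -0.09 (limma adjusted p = 0.23 and 0.44). PSPH-204, SHMT1-203, SHMT2-213, MTHFD1-215 and MTHFD1-210 overlapped between groups. The split of reads between transcripts is the authors' estimate, and no error of that split is given.

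**Figure D3:**
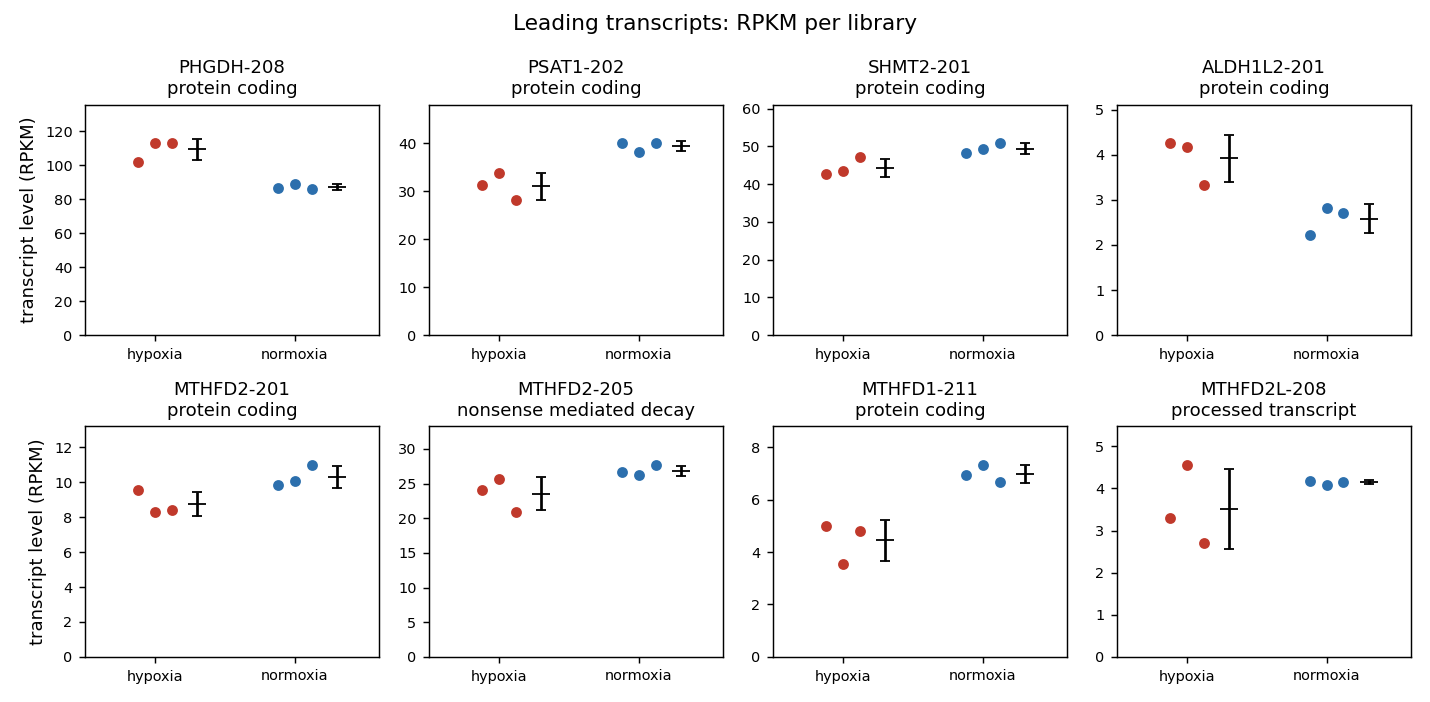
Level in RPKM (vertical axes from 0) of the leading transcripts of 7 enzymes in the hypoxic (red, left) and normoxic (blue, right) libraries, with the mean and SD of each group in black and the annotated type under each name. PHGDH-208 and ALDH1L2-201 are higher in all hypoxic libraries, and MTHFD2-201 is far below the decay-target transcript MTHFD2-205.

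The enzymes were set beside lists of neighbouring genes. Of 9 glycolytic genes around 3-phosphoglycerate, 6 of 7 tested were raised and 1 lowered, with a median log2 fold change of 0.61, beside 12.4% raised and 24.4% lowered over all tested genes. PGK1, which makes 3-phosphoglycerate, was at 460, 477 and 484 RPKM in hypoxia and 114, 110 and 119 RPKM in normoxia (log2 fold change 2.04, limma adjusted p = 1.20e-09). The enolase ENO2 was at 236, 212 and 270 RPKM in hypoxia and 64.1, 62.5 and 59.5 RPKM in normoxia. BPGM, which makes the bisphosphoglycerate of red cells, was the lowered one (log2 fold change -0.35, limma adjusted p = 0.00511). The log2 fold change of PHGDH (0.30) lay below that of each of the 6 raised glycolytic genes, of which PKM with 0.46 had the smallest, a difference that was not tested.

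Of 20 genes of serine and glycine transport and use, 2 of 16 tested were raised and 6 lowered, with a median of -0.15. The raised share was near the 12.4% of all tested genes, and 24.4% of those were lowered. SFXN3, a sideroflexin of the family that carries serine into mitochondria, was at 8.04, 6.81 and 8.23 RPKM in hypoxia and 4.72, 3.95 and 3.66 RPKM in normoxia (log2 fold change 0.77, SE 0.10, limma adjusted p = 3.48e-04), and PTDSS1, a phosphatidylserine synthase, passed at 0.17 (limma adjusted p = 0.0468). The call of PTDSS1 held in 6 of 16 alternative settings, over which its log2 fold change ran from -0.02 to 0.25. Of the other sideroflexins, SFXN1 was at 78.9, 61.1 and 79.1 RPKM in hypoxia and 76.7, 72.3 and 75.8 RPKM in normoxia, with overlap. SFXN2, at 1.81 RPKM or less in each library, was lowered (-0.39, limma adjusted p = 0.0147). It missed the threshold when normoxia replicate 2 or 3 was left out, or with no filter. The neutral amino acid transporter SLC38A2 fell to 85.9, 70.8 and 74.8 RPKM in hypoxia, against 103, 112 and 110 RPKM in normoxia (log2 fold change -0.49, limma adjusted p = 8.14e-04), and its relative SLC38A1 fell likewise (-0.39, limma adjusted p = 0.00406).

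Among other folate and one-carbon genes, 7 of 15 tested were lowered and 0 raised, with a median of -0.18. The folate carrier SLC19A1 was at 20.7, 24.6 and 23.7 RPKM in hypoxia and 32.1, 31.2 and 31.5 RPKM in normoxia (log2 fold change -0.45, limma adjusted p = 0.00112). GLDC, the glycine decarboxylase of the glycine cleavage system, was at 12.5, 12.2 and 12.1 RPKM in hypoxia and 16.1, 15.9 and 17.8 RPKM in normoxia (-0.41, limma adjusted p = 0.00163). ALDH1L1, the cytosolic counterpart of ALDH1L2, was below the filter. In the methionine cycle 3 of 9 tested were lowered and 0 raised (median -0.26), with MAT2B, the regulatory subunit of methionine adenosyltransferase, at -0.42 (limma adjusted p = 0.00185) and AHCYL1, a relative of adenosylhomocysteinase, at -0.36 (limma adjusted p = 0.00412). Of 6 enzymes of purine synthesis 3 were lowered and 0 raised (median -0.24). PPAT, the first committed step, was at 11.2, 12 and 9.22 RPKM in hypoxia and 17.0, 16.9 and 17.3 RPKM in normoxia (log2 fold change -0.63, limma adjusted p = 5.22e-04). GART, which uses formyltetrahydrofolate, was at 55.1, 53.2 and 49.8 RPKM in hypoxia and 64.7, 67.3 and 69.1 RPKM in normoxia (-0.34, limma adjusted p = 0.0019). The lowered shares of these lists, read against 24.4% over all tested genes, were not tested as sets.

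Among regulators of the pathway, 1 of 14 tested was raised and 4 were lowered (median -0.12), shares not set apart from the 12.4% and 24.4% of all tested genes by any test. ATF4 was at 4.12, 4.34 and 4.72 RPKM in hypoxia and 4.42, 4.66 and 3.36 RPKM in normoxia, with overlap (log2 fold change 0.08, limma adjusted p = 0.603). MYC, of which no principal transcript of the annotation is in the table, was at 88.2, 90.3 and 100 RPKM in hypoxia and 94.0, 95.0 and 94.7 RPKM in normoxia (log2 fold change -0.03, limma adjusted p = 0.756). The kinase gene EIF2AK2 (-0.64, limma adjusted p = 0.00139) and EIF2S1 (-0.44, limma adjusted p = 3.06e-04), which encodes the initiation factor subunit that such kinases phosphorylate, fell. The raised one, named after its values were seen, was the histone demethylase gene KDM4C, at 4.25, 3.35 and 3.96 RPKM in hypoxia and 2.79, 2.8 and 2.79 RPKM in normoxia (log2 fold change 0.35, limma adjusted p = 0.0139), a call lost without a filter (0.0646). Among 23 other ATF4 targets tested, 6 rose, 4 fell and the median was -0.05, beside 12.4% raised and 24.4% lowered over all tested genes. STC2, a stanniocalcin, was at 147, 143 and 153 RPKM in hypoxia and 57.7, 60.8 and 59.8 RPKM in normoxia (log2 fold change 1.30, limma adjusted p = 3.78e-08), and the mitochondrial transaminase GPT2 rose (0.51, limma adjusted p = 5.52e-04), while ATF5 (-0.33, limma adjusted p = 0.00487) and the amino acid transporter SLC7A5 (-0.33, limma adjusted p = 0.00304) fell.

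**Figure D4:**
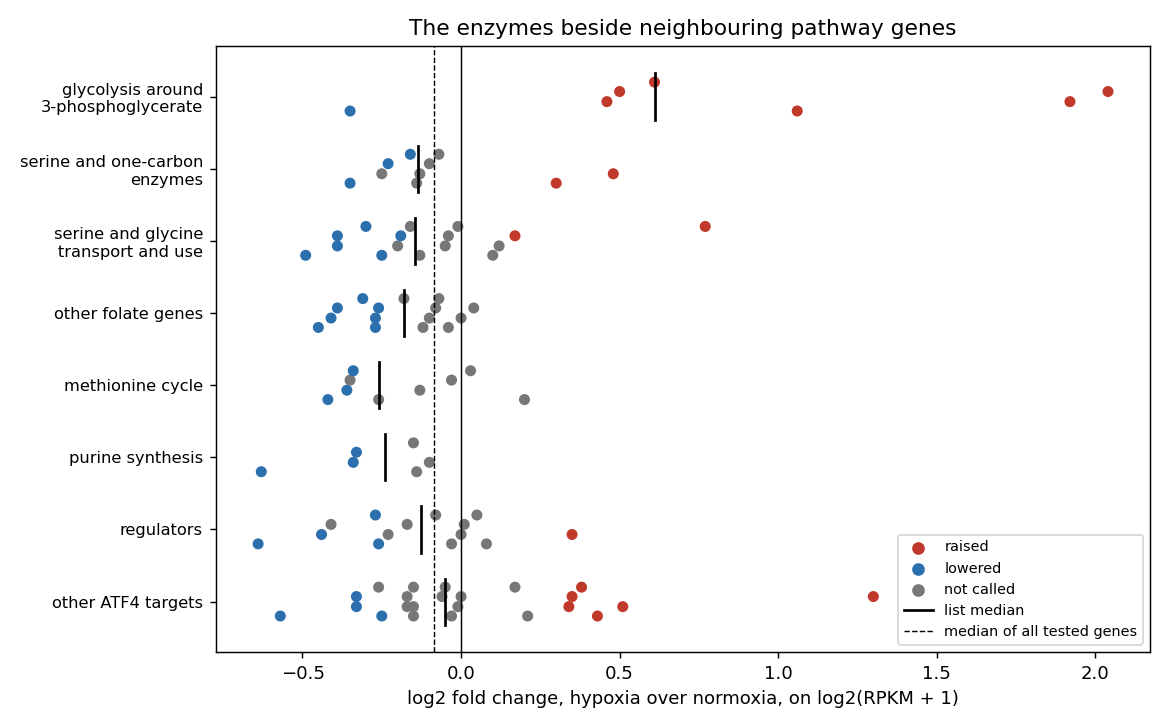
Log2 fold change, hypoxia over normoxia on log2(RPKM + 1) (horizontal axis), of each tested gene of the serine and one-carbon enzymes and of 7 lists of neighbouring genes (rows), coloured by whether it was raised, lowered or not called at an adjusted p under 0.05. Short black lines are list medians and the dashed line is the median of all tested genes; the glycolytic list has a median of 0.61 and the serine and one-carbon enzymes one of -0.14.

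The genes whose values over the 6 libraries lay nearest to those of PHGDH, by the root mean square difference of log2(RPKM + 1) values centred on each gene's mean, were MFSD12 (0.0182), GPR153 (0.0185) and CD151 (0.019) among 11038 other protein-coding genes. Among those nearest to MTHFD2 were GOLM1 (0.0102) and BUD13 (0.0143). CD151, for example, was at 293, 311 and 334 RPKM in hypoxia and 255, 255 and 260 RPKM in normoxia, and GOLM1 at 26.7, 26.9 and 25.8 RPKM in hypoxia and 30.2, 29.2 and 29.9 RPKM in normoxia.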

How the data were processed

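RNA of 3 hypoxic and 3 normoxic samples was sequenced. Per the labels' protocols, 500 ng of total RNA was used and the library kit was NEBNext Ultra RNA, which leaves strand unmarked. The submitters' processing notes name the builds GRCh38 and hg38 and the tools HISAT2, Partek, SAMtools and Trimmomatic. Annotation release, strand setting and RNA selection: not given in the sources used here. What the authors deposited are RPKM of 165956 Ensembl transcripts, a unit inferred from the values. In transcripts that are alone in their gene, 79.4% to 81.3% of low values times length lay within 0.1 of whole multiples, up to 20, of a step, from which depth was taken. A single read on 2 kb then equals 0.00982 to 0.01137 RPKM, which covers counting error only.

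Joined by identifier to GENCODE 29 (GRCh38), 140023 transcripts (84.4%) matched and were summed over 26425 genes. The 25933 others, with 3.43% to 3.67% of the RPKM, were not used, and some may belong to the enzymes described. Of the tested genes, 70 lack every principal transcript of GENCODE 29. Summed RPKM weights short transcripts more than read numbers would. The groups were compared on log2(RPKM + 1) by limma with a trended prior variance, over genes exceeding 1 RPKM in 3 or more libraries, with Benjamini-Hochberg adjustment over all of them and a threshold of 0.05. Members, lists and tests were chosen with earlier results of these data known.

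Genes named are the 10 enzymes, ATF4, MYC, VEGFA and BNIP3, per list up to 2 raised and 2 lowered genes of largest change with a group mean of at least 5 RPKM, the 3 nearest to PHGDH and to MTHFD2, and transcripts with 10% or more of a gene's sum; PKM, KDM4C, SFXN1, SFXN2, markers and overlapping genes come on top. Some genes that this rule or the marker lists hold are not reported here. No replicates agreed within counting noise. The mean chi-square per gene was 6.69 to 12.8 between normoxic libraries and 20.9 to 25.7 between hypoxic ones. The fit was tested on simulated data, where it missed more of the smaller changes than of the larger ones. The recovery required of it was restricted to the larger ones after a first run had failed the stricter demand. The smallest simulated log2 change, 0.5 in either direction, exceeded that of each of the 10 enzymes, so recovery at their size was not examined. Alternatives were other scalings, filters and a pseudocount, limma-voom on estimated reads, a GC correction (loess, span 0.5), protein-coding transcripts alone, a replicate block and leaving out each library. Software was limma 3.58.1 in R 4.3.3, and Python 3.11.15 with pandas 2.3.3, matplotlib 3.10.9 and numpy 2.4.6.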

Additional observations from a re-analysis of the deposited data

How the results depend on the processing

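PHGDH (log2 fold change 0.21 to 0.39) and ALDH1L2 (0.43 to 0.60) stayed raised under each alternative that could test them, 16 for PHGDH and 15 for ALDH1L2, which a filter of more than 5 RPKM removes, leaving 1 raised enzyme. PSAT1, MTHFD1 and MTHFD2 kept a negative log2 fold change in all 16 alternatives and passed in 11, 10 and 9. The number of lowered enzymes, 3 as reported, was 0 with median-of-ratios and with upper-quartile scaling and 7 with libraries rescaled to equal sums, and 0 to 4 when 1 library was left out, with 0 without normoxia replicate 2 or 3. With both scalings SHMT2 changed sign, to 0.01 and 0.00297 (adjusted p = 0.932 and 0.979). Of all genes, 2900 were lowered and 1479 raised; 1421 were lowered (2027 raised) with median-of-ratios scaling, 1473 (1963 raised) with upper-quartile scaling, 4217 (1175 raised) with equal sums and 1367 with no filter, and 1521 to 2852 when 1 library was left out (1754, 1620 and 1521 without normoxia replicate 1, 2 and 3). Lowered genes were 66.2% of the calls, 41.2% and 42.9% with the first and second scaling and 78.2% with equal sums, where the median of all genes was -0.085, -0.011, -0.017 and -0.144. The cause of these differences was not tested. Same-numbered libraries did not deviate together (correlations of 0.089, 0.03 and -0.227), and the labels state no pairing. With 3 libraries per group these correlations cannot decide whether the samples were paired. With the replicate block 2663 genes were lowered, 2 enzymes were raised and 2 lowered, and MTHFD2 had an adjusted p of 0.0763. Over the alternatives, lowered members numbered 4 to 9 in the folate list (15 tested as reported) and 3 to 5 in purine synthesis (6 tested). They numbered 4 to 9 in serine transport and use (16 tested) and 2 to 5 in the methionine cycle (9 tested). Raised ones numbered 1 in 10 of the 16 for serine transport and use, and 1 in 5 of the 16 for the methionine cycle. Raised glycolytic genes (7 tested) numbered 6 in each. The lowered genes among all tested moved too, from 1367 of 26425 with no filter to 4217 of 11888 with equal sums. Whether the lists moved apart from them was not tested. Depth limits the values of MTHFD1 and MTHFD2L most.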
